A study of Mus musculus with 12 samples.

Results

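The Hedgehog receptors and effectors were examined in newborn mouse brain with and without the protein kinase KIS, which is encoded by Uhmk1. The members are the genes Shh, Boc, Cdon, Gas1, Ptch1, Smo, Gli1, Gli2 and Gli3, found by their symbol among the main probesets of exon arrays. They were chosen because Boc had shown many probesets with lower values in the knockout, so Boc was selected on measured values of these same arrays and its values are given as a description, without a test. The other genes were listed for their place in the pathway. Of the 9 symbols, 8 had probesets, 152 in all out of 221417 main probesets with a symbol, and 150 of these were kept after the filter on variable probesets. No main probeset carried the symbol Gli2 in the table used, and Gli2 was not analysed here.

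RNA came from the whole brain of newborn female mice on a C57BL6/N background. The 12 arrays fell into 6 wildtype (KIS +/+) and 6 KIS-ko (KIS -/-) brains, with 1 brain of each genotype from each of 6 litters. The knockout is constitutive, and each array averages all brain regions and cell types. A lower value from such bulk tissue can mean fewer cells of a type or less RNA per cell, which cannot be told apart here.

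Hedgehog ligands such as Shh bind the receptor Ptch1 together with a co-receptor, Boc, Cdon or Gas1. Ligand binding relieves the block that Ptch1 places on the membrane protein Smo, which then acts at the primary cilium to turn the Gli transcription factors towards activation. Ptch1 and Gli1 are themselves transcribed in response to the pathway and serve as its usual readout, and in the developing brain the pathway patterns the ventral neural tube and drives proliferation of cerebellar granule neuron precursors.

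Gene values are means of log2(signal + 16) over the probesets of a gene, and differences are on that scale, on which the added 16 can damp the change of a dim gene. For the dim Gli1 the mean difference changed little: it was -0.026, and -0.022 with an added 1 and -0.027 with an added 64. Its probesets went both ways, so this mean cannot show whether single probesets were damped. The mean signal of 44.6% of the kept probesets lay above 713.3, the 95th percentile of 5222 intron control probesets. Array medians ran from 459.9 to 525.9. Uhmk1 separated the genotypes completely, with log2 values of 10.891 to 11.068 in wildtype and 8.623 to 8.979 in KIS-ko brains. It was the only one of 17279 genes, 0.00579%, with a limma p adjusted over all genes under 0.05 (difference -2.11, SE 0.068, adjusted p = 2.91e-07). Without adjustment, 1065 genes (6.16%) had a limma p under 0.05 and 750 (4.34%) did so with a lower value in KIS-ko. Most genes leaned the same way, 12064 genes (69.8%) and 136102 kept probesets (66.2%) having a lower mean in KIS-ko. The median of all genes was -0.036, so each difference is also set against the median gene of its litter. Litter 4 stood apart, with a median gene 0.071 higher in KIS-ko. Without it, 3913 genes had an unadjusted limma p under 0.05. Without litters 1, 2 and 6 in turn, the count was 695, 605 and 550.

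The co-receptor Boc was lower in KIS-ko than in the wildtype littermate in 5 of 6 litters, by a mean of 0.157 on the log2 scale. Of the pathway's transcriptional readouts, Ptch1 was lower in 5 of 6 litters with a difference of -0.071, and Gli1 in 4 of 6 with -0.026. Of the 7 measured members other than Boc, 6 had a lower mean and Gas1 a higher one, and none had an unadjusted limma p under 0.05. Their median difference was -0.026, beside -0.036 for all genes. Without litter 4, in which most members were higher in KIS-ko, their median was -0.071. The -0.036 includes litter 4, in which the median gene was higher too, and is no reference for that value. In the other litters the median gene ran from -0.112 to 0.002. Only 3 of these 7 were lower once the median gene was taken as reference.

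**Figure D1:**
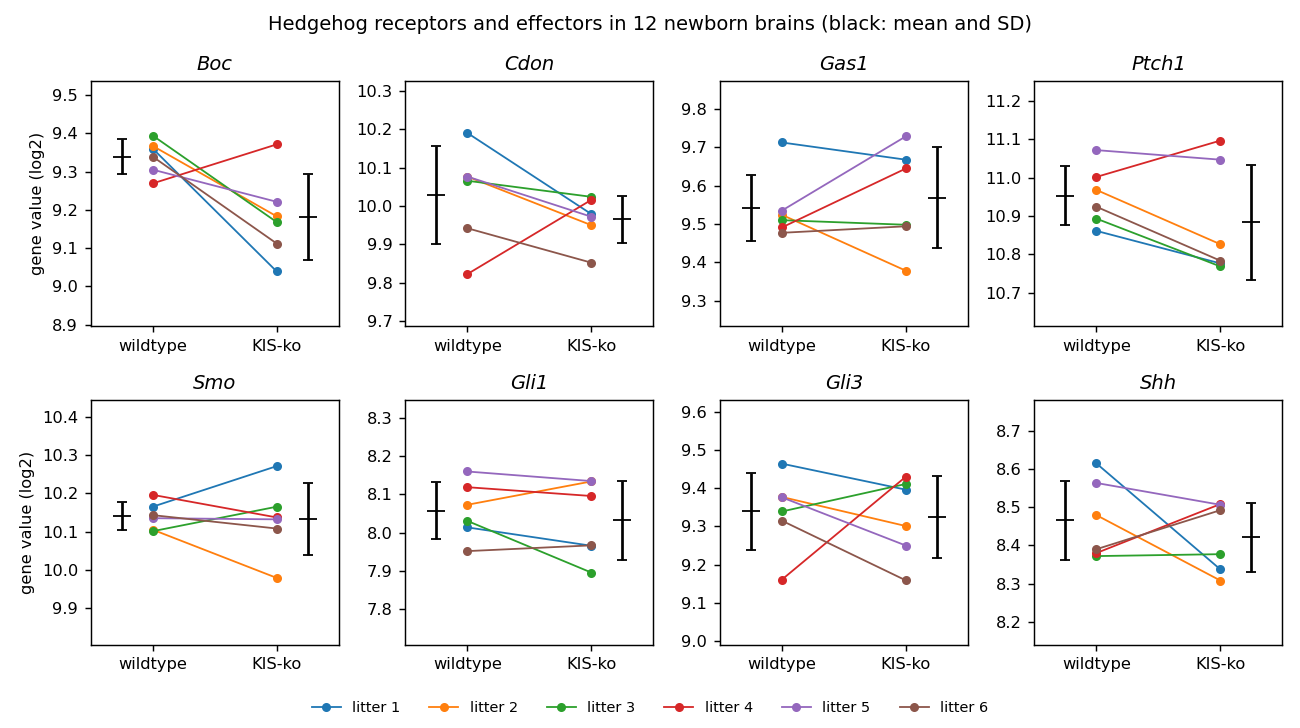
Gene value, as mean log2(signal + 16) over kept probesets, of the 8 measured Hedgehog genes in the 6 wildtype and 6 KIS-ko brains, with a line joining the littermates of each litter and black marks for mean and SD. The genotypes overlap for every gene, and the Boc line falls in 5 litters and rises in litter 4.

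The ligand Shh was measured by 7 probesets on chromosome 5 (28783380 to 28793584, minus strand, positions as the deposited table gives them, on a build that the sources used here do not name). Only 1 of the 7 was brighter than the intron control limit, so most of the gene value lay in the range of background. The wildtype brains ranged from 8.372 through a median of 8.434 to 8.614, and the KIS-ko brains from 8.308 through 8.435 to 8.508. The groups overlapped over most of their range. The difference was -0.045 (95% interval -0.182 to 0.092, limma adjusted p = 0.788) with 3 of 6 litters lower, and -0.008 ± 0.148 (SD, n = 6) relative to the median gene.

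Boc, an immunoglobulin superfamily co-receptor that also binds Shh on commissural axons, was covered by 30 probesets on chromosome 16 (44485216 to 44521439, minus strand), of which 16 were brighter than the intron control limit. In the wildtype brains of litters 1 to 6 its log2 value was 9.36, 9.367, 9.394, 9.269, 9.305 and 9.339. In their KIS-ko littermates it was 9.039, 9.183, 9.168, 9.371, 9.221 and 9.112. The wildtype values were close together and the KIS-ko values spread over a wider range, with an SD of 0.112 against 0.045. As deposited, the groups overlapped through litter 4, in which the wildtype brain had the lowest wildtype value and the KIS-ko brain the highest KIS-ko value. Relative to the array medians, the KIS-ko brains of litters 2, 4 and 5 (0.483, 0.539 and 0.563) lay above the lowest wildtype value (0.473). The mean difference of -0.157 (SE 0.06) corresponds to 89.7% of the wildtype level. Relative to the median gene of each litter it was -0.119 ± 0.115 (SD, n = 6), again lower in 5 of 6 litters. Without litter 4 the difference as deposited was -0.208 ± 0.086 (SD, n = 5).

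All 30 Boc probesets had a lower mean in KIS-ko, beside 66.2% of all kept probesets. They ranged from -0.246 to -0.05 with a median of -0.164. The 16 probesets brighter than the control limit had a median of -0.169 and the 14 dimmer ones a median of -0.143. These values chose the gene and are given as a description. Both extremes were single probesets at different places in the transcript: the last at the 3′ end (44485216 to 44485249) had the lowest difference and the twelfth (44491985 to 44492012) the smallest. Within litters 1, 2, 3, 5 and 6, respectively 29, 24, 28, 22 and 28 of the 30 probesets were lower, and in litter 4 only 11 were. Probesets of 1 gene share the same RNA and are not replicates. Of 2789 genes with at least 20 kept probesets, 55 (1.97%) were lower in all of them.

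**Figure D2:**
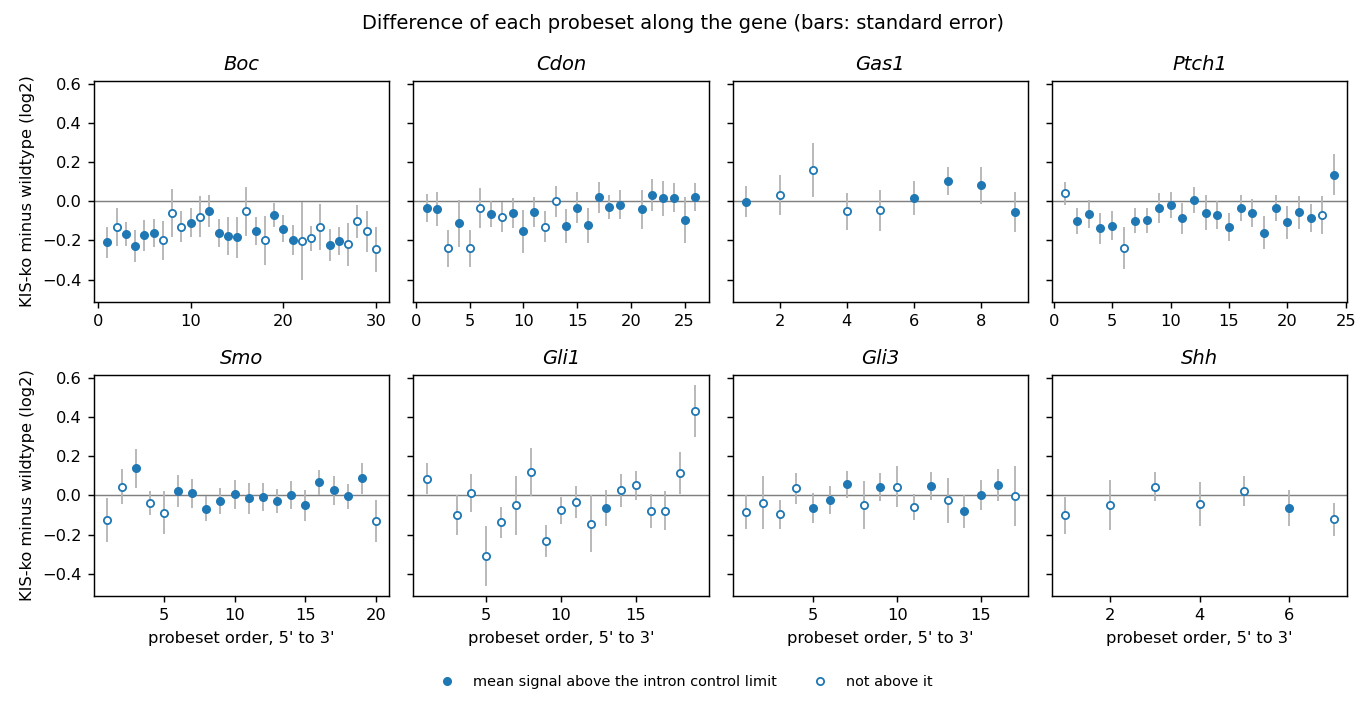
Difference of each kept probeset, KIS-ko minus wildtype on the log2 scale, in order from the 5′ to the 3′ end of the 8 genes, with bars for the standard error. Filled points are probesets with mean signal above the intron control limit; all 30 Boc points lie under 0, while those of Smo and Gli3 scatter around it.

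Cdon is the closest relative of Boc among the co-receptors and was measured by 25 kept probesets on chromosome 9 (35259697 to 35311798, plus strand), 19 of them brighter than the control limit. The wildtype brains ranged from 9.822 through a median of 10.072 to 10.191, and the KIS-ko brains from 9.852 through 9.975 to 10.024. The KIS-ko values lay inside the wildtype range. The difference was -0.064 (95% interval -0.192 to 0.064, limma adjusted p = 0.715), with 5 of 6 litters lower and an exact sign-flip p of 0.2812, two-sided. As deposited, litter 4 was the 1 litter in which Cdon was higher, by 0.194. Without that litter the mean difference was -0.115 (limma adjusted p = 0.191), and without litter 1 it was -0.034 (limma adjusted p = 0.92). Relative to the median gene the difference was -0.027 ± 0.095 (SD, n = 6), lower in 4 litters and higher in 2 (exact sign-flip p = 0.5312). Of its probesets, 20 were lower and 5 higher, and 2 dim ones, both under the control limit (35260246 to 35260283 and 35260389 to 35260438), had differences of -0.241 and -0.239 with unadjusted limma p of 0.0329 and 0.0326 and an adjusted p of 0.751. The brighter probeset between them (35260299 to 35260369) differed by -0.112, with an adjusted p of 0.839 from limma.

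Gas1, a membrane-anchored co-receptor, was measured by 9 probesets on chromosome 13 (60276870 to 60278330, minus strand), 5 of them brighter than the control limit. Wildtype values ran from 9.477 through a median of 9.517 to 9.713, and KIS-ko values from 9.378 through 9.571 to 9.729. The KIS-ko brains spanned the whole wildtype range. It was the only member with a higher mean in KIS-ko, by 0.027 (95% interval -0.097 to 0.15, limma adjusted p = 0.86), lower in 3 litters and higher in 3, and this sign turned without litter 5 (-0.007). The value was 0.144 with the median over probesets and 0.082 with centred arrays. Relative to the median gene it was 0.064 ± 0.112 (SD, n = 6), higher in 4 litters. Unlike Boc, it did not lean one way along the gene, with 4 probesets lower and 5 higher.

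Ptch1, the receptor and also a transcriptional target, was measured by 24 probesets on chromosome 13 (63612841 to 63666828, minus strand), 21 of them brighter than the control limit. In wildtype it ranged from 10.861 through a median of 10.946 to 11.072. In KIS-ko it ranged from 10.768 through 10.804 to 11.097. In KIS-ko 4 of the 6 brains lay under the lowest wildtype value, while that of litter 5 lay high in the wildtype range and that of litter 4 above it. This held only as deposited: relative to the array medians, 1 of the 6 KIS-ko brains (1.987) lay under the lowest wildtype value (1.995). The litter differences were -0.084, -0.142, -0.125, 0.095, -0.025 and -0.142, with a mean of -0.071 (95% interval -0.181 to 0.04, limma adjusted p = 0.687, exact sign-flip p = 0.125, the smallest possible being 0.03125). Leaving out each litter in turn gave -0.104 (without litter 4, limma adjusted p = 0.208) to -0.056. Relative to the median gene the difference was -0.033 ± 0.057 (SD, n = 6), lower in 4 litters and higher in 2. In all, 21 of 24 probesets were lower, none with an unadjusted p under 0.05.

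Smo, the signal transducer, was measured by 20 probesets on chromosome 6 (29685740 to 29711141, plus strand), 15 of them brighter than the control limit. The wildtype range was narrow, from 10.101 through 10.139 to 10.196, and lay inside the KIS-ko range from 9.979 through 10.134 to 10.271. The difference was -0.009 (95% interval -0.117 to 0.099, limma adjusted p = 0.947) and its sign turned when arrays were centred on their medians (0.047). Set against the median gene it was 0.028 ± 0.099 (SD, n = 6). Probesets were split nearly evenly, 11 lower and 9 higher.

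Gli3, which acts mainly as the repressor of the family, was measured by 17 probesets on chromosome 13 (15555913 to 15815596, plus strand), 8 of them brighter than the control limit. Wildtype values ran from 9.161 through a median of 9.358 to 9.464 and KIS-ko values from 9.159 through 9.348 to 9.43. The ranges were nearly the same. The difference was -0.014 (95% interval -0.152 to 0.124, limma adjusted p = 0.935), turning to 0.041 with centred arrays. With the median gene as reference it was 0.023 ± 0.099 (SD, n = 6). Litter 4 had the largest single difference of Gli3, 0.27 higher in the KIS-ko brain.

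Gli1, the activator that is itself induced by the pathway, was measured by 18 kept probesets on chromosome 10 (126766956 to 126778355, minus strand), and only 1 was brighter than the control limit. Wildtype values ran from 7.952 through a median of 8.052 to 8.16, and KIS-ko values from 7.896 through 8.031 to 8.135. The groups overlapped over most of their range. The litter differences were -0.048, 0.061, -0.135, -0.023, -0.025 and 0.014, with a mean of -0.026 (95% interval -0.129 to 0.077, limma adjusted p = 0.837, exact sign-flip p = 0.4375), and the sign turned with centred arrays (0.030). The mean relative to the median gene was 0.011 ± 0.114 (SD, n = 6). Its probesets did not move together: 11 were lower and 7 higher. A probeset at 126773482 to 126773549 was lower in 6 of 6 litters. Its difference was -0.233 (SE 0.083), with an adjusted p of 0.751 from limma. The last probeset at the 3′ end (126766956 to 126767084), at a mean signal of 57.4, was higher by 0.431 (SE 0.132), with an adjusted p of 0.742 from limma. Both were under 0.05 without adjustment. Apart from Boc, which was not tested, no member probeset passed an adjusted p of 0.05, which 10 of 205469 kept probesets (0.00487%) did. The unadjusted threshold was passed by 6.63% of all kept probesets.

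**Figure D3:**
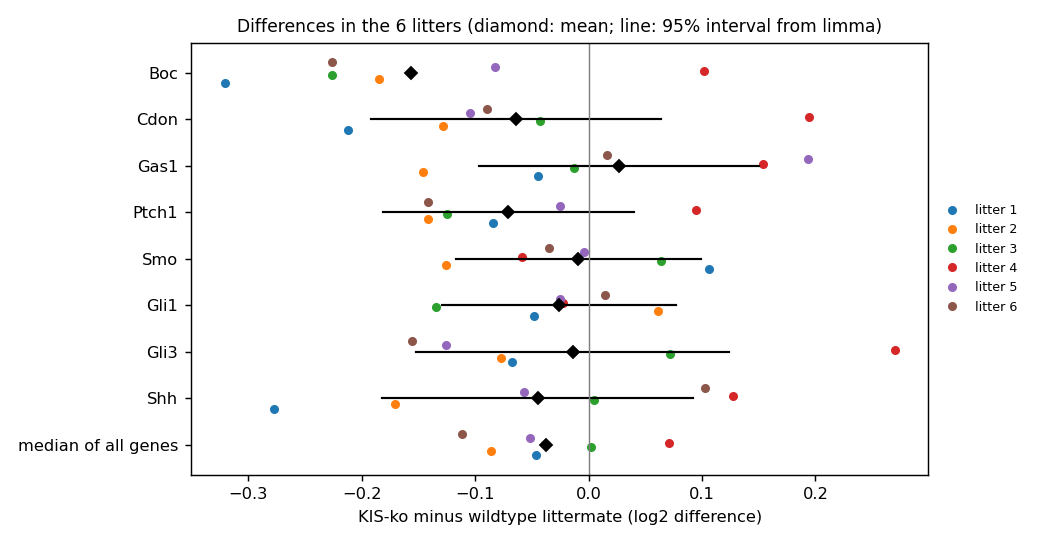
Difference of each of the 6 litters, KIS-ko minus wildtype littermate on the log2 scale, for the 8 Hedgehog genes and the median of all genes. Diamonds are means and lines the 95% intervals from limma, drawn for the genes other than Boc; litter 4 lies above 0 for Boc, Cdon, Gas1, Ptch1, Gli3, Shh and the median gene.

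Whether the other members followed Boc within litters was asked by correlating their litter differences with that of Boc, in 7 relations over 6 litters with exact permutation tests, two-sided. As deposited, Cdon gave r = 0.881 (exact p = 0.0694) and rho = 0.543 (exact p = 0.297), and Ptch1 gave r = 0.863 (exact p = 0.0806) and rho = 0.486 (exact p = 0.356). After adjustment over the 7 relations both r had p = 0.282 and both rho p = 0.498, so neither passed. Over the 4 litters left without the 2 farthest from the median Boc difference, litters 4 and 5, r was 0.685 for Cdon and -0.951 for Ptch1. Gli1 gave r = 0.143 (exact p = 0.839) and rho = 0.257 (exact p = 0.658). Gas1, Gli3 and Shh gave r = 0.693, 0.674 and 0.615 (exact p = 0.144, 0.236 and 0.167), and -0.348, 0.017 and 0.495 without litters 4 and 5. Relative to the median gene their r was 0.537, 0.333 and 0.502 (exact p = 0.258, 0.531 and 0.319). The litters also differed in a general shift, the median gene being 0.071 higher in KIS-ko in litter 4 and 0.112 lower in litter 6 (-0.112). Relative to that shift, r was 0.793 for Cdon, 0.74 for Ptch1 and 0.111 for Gli1 (exact p = 0.0694, 0.0833 and 0.8). For Cdon and Ptch1 the adjusted p of r was 0.194, and rho was 0.6 and 0.657 (exact p = 0.242 and 0.175, adjusted p = 0.564). Without litters 1 and 4, the farthest on that scale, it was -0.045 for Cdon, 0.966 for Ptch1 and 0.656 for Gli1. With 4 litters left and the range of Boc narrowed, these values do not show on which litters a relation rests. On the relative scale Smo went opposite to Boc with r = -0.806 (exact p = 0.0472, adjusted p = 0.194) and rho = -0.886 (exact p = 0.0333, adjusted p = 0.233), but r was -0.24 without litters 1 and 4. As deposited, Smo gave r = -0.504 (exact p = 0.289, adjusted p = 0.337) and rho = -0.6 (exact p = 0.242, adjusted p = 0.498), and r = -0.842 without litters 4 and 5.

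Across the 12 arrays, with each value taken relative to its array median and as a deviation from its genotype mean, the readouts Ptch1 and Gli1 varied alike (r = 0.842). Ptch1 ranked 251 among 17278 genes by likeness to Gli1, and Gli1 ranked 431 by likeness to Ptch1. Cdon and Gli3 gave r = 0.865, Gli3 ranking 15 for Cdon and Cdon 32 for Gli3. For Boc the most alike member was Ptch1 (r = 0.754, rank 456), followed by Gli1 (r = 0.652, rank 1197). As deposited, without setting each value against its array median, Ptch1 was again the most alike member (r = 0.576) but Gli1 fell behind Cdon, Gli3 and Shh (r = 0.294). Ptch1 and Gli1 then gave r = 0.737, and Cdon and Gli3 r = 0.885. These correlations are descriptions, since the points share litters, array scaling and any difference in RNA quality. The most alike genes were sought over the 6907 genes (6908 for Gli1) with at least 4 probesets and a signal above the control limit. The 5 most alike to Boc were Tnrc6a (0.932), Tceb3 (0.931), Pias1 (0.929), Sec24a (0.928) and Larp4b (0.928), none of them on the Hedgehog lists. Those most alike to Ptch1 were Bptf (0.973), 5730403B10Rik (0.968), BC017647 (0.965), Osbpl6 (0.963) and 2310021P13Rik (0.961), and 117 genes exceeded 0.9 with it. Those most alike to Gli1 were Inpp5k (0.967), Rundc3b (0.965), Nnat (0.958), Tshz3 (0.95) and Tcf25 (0.94). As deposited, 4 of the 5 named for Boc and 3 of the 5 for Ptch1 were again among the 5 most alike. For Gli1 0 of the 5 were, its list being led by Gigyf1 (0.87). On that scale no gene exceeded 0.9 with Gli1 and 27 did with Ptch1.

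**Figure D4:**
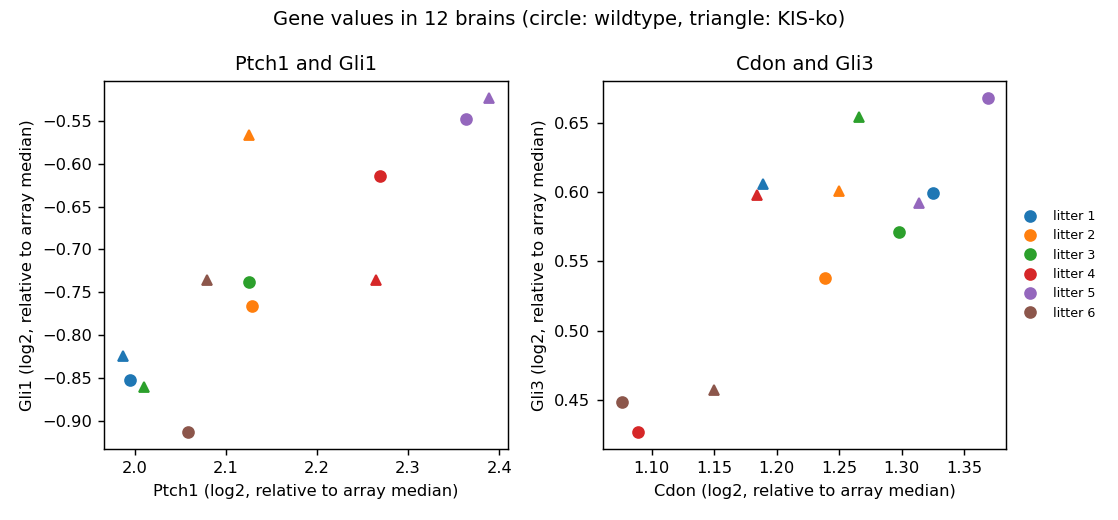
Gene values relative to the array median (log2) in the 12 brains, Gli1 against Ptch1 on the left and Gli3 against Cdon on the right, with circles for wildtype, triangles for KIS-ko and a colour for each litter. Both pairs vary together across brains (r = 0.842 and 0.865 after removing genotype means), with no separation of the genotypes.

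A wider list of 50 Hedgehog pathway genes, of which 44 were measured and 23 had a mean signal above the control limit, leaned lower. In KIS-ko 37 were lower and 7 higher (84.1% lower, beside 69.8% of all genes), with a median of -0.053 beside -0.036. None passed the adjusted threshold, and 3 of the 44 had an unadjusted limma p under 0.05, all lower. That is 6.82% of the list, beside 6.16% of all genes in both directions and 4.34% lower, and nothing is read from it. The count of 3 became 9 without litter 4, 1 without litter 1 or litter 2, and 0 without litter 6. Over all 17279 genes, the count of 1065 became 3913 without litter 4, and 695, 605 and 550 without litters 1, 2 and 6 in turn. Relative to the median gene the median was -0.016 and 26 of 44 were lower, and with centred arrays 21 were lower. By role, the 7 genes of ligand making and release had 4 lower and 3 higher, the 8 surface modulators 6 and 2, and the 13 target genes 11 and 2. All 6 genes of the cilium and of traffic and all 12 cytosolic regulators were lower, with medians of -0.072 and -0.039, but relative to the median gene these medians were -0.035 and -0.002. For the ligand genes, surface modulators and targets the relative medians were 0.033, -0.025 and -0.016.

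The 3 genes under the unadjusted threshold were also those with the largest absolute differences of the list. Hhip, a target that binds and sequesters Hedgehog ligands, had 7.955 ± 0.062 in wildtype and 7.785 ± 0.133 in KIS-ko (SD, n = 6), a difference of -0.17 (SE 0.061, limma unadjusted p = 0.0194, adjusted p = 0.685). Rab23, a small GTPase that restrains the pathway, had 9.304 ± 0.078 and 9.166 ± 0.058, a difference of -0.138 (SE 0.055, limma unadjusted p = 0.0305, adjusted p = 0.685). Foxf1a, a forkhead transcription factor measured by 2 probesets, differed by -0.132 (SE 0.056, limma unadjusted p = 0.0389, adjusted p = 0.685). Each was lower in 5 of 6 litters. Hhip and Foxf1a were dim, with mean signals of 265 and 213.

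Marker lists for the cells in which the pathway acts and for other cells of the brain are given beside the general lean, 69.8% of all genes being lower with a median of -0.036. All 6 measured pan-neuronal markers were above the control limit, as the brain label requires, and their median difference was -0.03. The medians were -0.056 for cerebellar granule precursors (5 of 7 lower), -0.061 for Purkinje cells (6 of 6 lower), 0.002 for the ventral midline (3 of 6 lower) and -0.007 for callosal and upper layer neurons (5 of 6 lower). They were -0.076 for astrocytes and radial glia (8 of 8 lower), -0.03 for oligodendrocyte precursors (3 of 5 lower), -0.093 for meninges (6 of 8 lower), -0.002 for choroid plexus (3 of 5 lower), -0.042 for endothelium (4 of 5 lower) and -0.041 for microglia (3 of 4 lower, none above the control limit). Taken relative to the median gene, the medians lay between -0.056 for meninges and 0.039 for the ventral midline in these lists, with -0.024 for Purkinje cells, -0.019 for granule precursors and -0.039 for astrocytes and radial glia. Of the 66 genes of these lists 3 (4.55%) had an unadjusted limma p under 0.05, all lower, beside 4.34% of all genes, and they are named after their values were seen. They were the astrocyte marker Gfap at -0.274 (limma adjusted p = 0.685), the meningeal marker Ptgds at -0.166 and lower in 6 of 6 litters (limma adjusted p = 0.685), and the Purkinje cell marker Car8 at -0.121 (limma adjusted p = 0.685). The 5 proliferation markers, of which only 1 was above the control limit, were all lower with a median of -0.121 (-0.084 relative to the median gene). As on the granule precursor, Purkinje cell, neuron and meninges lists, the mean difference over the genes of the list was higher only in litter 4. For the proliferation markers this mean was -0.187, -0.163, -0.096, 0.241, -0.183 and -0.325 in litters 1 to 6. Their summed signal overlapped between wildtype (1943 to 2527) and KIS-ko (1974 to 2300). No gene of these lists passed the adjusted threshold, and the part of any of these shifts in the values of Boc was not tested.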

How the data were processed

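Total RNA of 12 newborn brains was hybridised to Affymetrix Mouse Exon 1.0 ST arrays. The authors made the deposited intensity values with Affymetrix Expression Console, as PLIER signals on a linear scale after quantile normalization at the exon level. Software versions and the genome build are not given in the sources used here. Medians of the deposited arrays still differed and most genes leaned lower in KIS-ko, so values are also given relative to the median gene, and centring and a new quantile normalization were tried.

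Main probesets with a symbol were kept where the relative SD was at most 0.4 in both genotypes, which removed 15948 (7.2%). Values were taken as log2(signal + 16) and averaged over the probesets of a gene. Genotypes were compared with limma 3.58.1 in R 4.3.3 (lmFit and eBayes) with litter as a block, adjusted by Benjamini-Hochberg over all genes or all probesets. The scripts were tested on simulated data. The number of arrays limits the precision. Exact sign-flip tests over litters and exact permutation tests of correlations were two-sided.

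Pairing came from the litter in the labels. Deviations from genotype means correlated between littermates at 0.272, -0.059, 0.136, -0.106, 0.473 and -0.114, beside a mean of -0.019 between litters. Alternatives changed the block, pseudocount, filters, scaling, gene summary, moderation, test and litters included.

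Named were the members, Uhmk1, the wider Hedgehog genes with an unadjusted p under 0.05 or the 3 largest differences, and the 5 genes of most similar profile to Boc, Ptch1 and Gli1; the markers Gfap, Ptgds and Car8 and the gene Gigyf1 were named outside this rule, after their values were seen. The members and all lists were chosen with earlier results of these data known.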

Additional observations from a re-analysis of the deposited data

Results flagged for a closer look

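The wildtype brain of litter 1 stood apart for Gas1, with the highest wildtype value, 9.713. The nearest of the other wildtype brains was at 9.535, and this gap took 0.753 of the range of the 6 values by Dixon's test, past its 95% critical value. It was the 1 such sample among 24 groups examined, and chance gives about 1 in 20. Relative to the array medians it did not stand apart, at 0.847 beside 0.827 for the next highest wildtype brain, that of litter 5.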

How the results depend on the processing

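Boc, Cdon and Ptch1 kept a lower mean in KIS-ko under all alternatives run, from -0.208 to -0.101, -0.117 to -0.008 and -0.104 to -0.015. None of the 7 tested members (Boc was not tested) passed the adjusted threshold under any. The number of genes called, 1, became 2 with a pseudocount of 64, 2 without the filter on relative SD, 5 with a limit of 0.2, 5 without dim probesets, 2 with trended and robust moderation, and 1 to 2 when each litter was left out. The members other than Boc with a lower mean, 6, became 2 with centred arrays, 2 after a new quantile normalization and 3 with the median over probesets, and their median of -0.026 became 0.03 and 0.02 under the former pair, 0.01 with the median over probesets and -0.071 without litter 4. The sign of Smo turned without dim probesets (0.010), with centred arrays (0.047), quantile normalization (0.032), the median over probesets (0.034) and the weighted fold change (0.001), and leaving out each litter gave -0.032 to 0.014. Gli3 turned likewise (0.004, 0.041, 0.033, 0.016 and 0.002, and -0.071 to 0.014), as did Gli1 with centred arrays (0.030) and quantile normalization (0.020) and Shh with these and the median over probesets (0.011, 0.005 and 0.010, and -0.079 to 0.001 over litters left out). Gas1 ran from -0.007 to 0.061 over litters left out, and was 0.144 with the median over probesets, 0.082 with centred arrays and 0.074 after quantile normalization. The cause was not tested.

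Litters 1, 2, 4 and 6 weighed on the unadjusted counts. Over all genes, 1065 became 695, 605, 3913 and 550 without each of them, and 644 without dim probesets. On the wider Hedgehog list, 3 became 1, 1, 9 and 0. Its lower genes, 37, became 21 with centred arrays, with a median of 0.002. Over all alternatives the adjusted p ran from 0.191 to 1 for Cdon, 0.208 to 1 for Ptch1 (both lowest without litter 4) and 0.722 to 1 for Gli1. Without the litter block, 1 gene was called and 1017 had an unadjusted p under 0.05; the adjusted p was 0.775 for Ptch1 and 0.886 for Gli1, and leaving out the pairing changed no call. Arrays give no depth; signal near the intron controls limits Gli1 and Shh in particular, where only 1 probeset each was brighter than the limit.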
